A study of Mus musculus with 6 samples.

Results

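The genes described were Csf1r, Flt3, Zeb2, Klf4, Irf4, Irf8, Batf3, Nr4a1 and Id2, 9 of the 32287 features in the gene matrix. They were chosen as the receptors and transcription factors best known for setting macrophage, monocyte and dendritic cell identity. The rule itself uses no measured value, but results of these data were known when it was written. Cells came from the inguinal lymph nodes of CD169Tom mice, which carry Cre at the Cd169 (Siglec1) locus on 1 allele and floxed tdTomato. A cell that once turned on Siglec1 therefore stays red with its progeny, so the label marks a history and not 1 cell type. There were 2 unimmunized mice and 2 mice immunized with hen egg lysozyme and taken at day 9, all of the same genotype. For their age the methods give only a lower limit, for all mice of the study together. Sorted CD11b+TOM+ cells carried 1 hashtag antibody per mouse, were pooled, and went through CITE-seq, a method that reads surface proteins, through antibodies with a DNA tag, beside the transcripts of each cell.

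Myeloid identity is set by a small number of growth factor receptors and by factors that switch on one programme and hold back others. CSF1R, the receptor for M-CSF and IL-34, keeps monocytes and macrophages alive, while FLT3 does the same for dendritic cell progenitors and conventional dendritic cells. IRF8 with its AP-1 partner BATF3, together with ID2, a protein that blocks E-protein transcription factors, is needed for type 1 conventional dendritic cells (cDC1). IRF4 and KLF4 act in type 2 dendritic cells, KLF4 and the orphan nuclear receptor NR4A1 in monocytes, NR4A1 above all in nonclassical monocytes. ZEB2 is a zinc finger repressor used by monocytes and macrophages.

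Irf8 and Batf3 encode partners in cDC1 and were each highest in a different dendritic cell gate. The bases upstream of their RefSeq starts (GRCm38.p6) are shown for that reason, 5′ to 3′ on the plus strand. Capitals mark matches to the 2 motifs found there, the interferon-gamma activated site written TTCNNNGAA and the CCAAT box written CCAAT, both searched on both strands. The Irf8 window is chr8:120736108-120736357 and ends at the base before the start, and the Batf3 window is chr1:191098164-191098324. The Batf3 window was cut short of the RefSeq start, where an annotated untranslated region begins. Its 161 bases lie inside the Batf3 gene span given below.
Irf8: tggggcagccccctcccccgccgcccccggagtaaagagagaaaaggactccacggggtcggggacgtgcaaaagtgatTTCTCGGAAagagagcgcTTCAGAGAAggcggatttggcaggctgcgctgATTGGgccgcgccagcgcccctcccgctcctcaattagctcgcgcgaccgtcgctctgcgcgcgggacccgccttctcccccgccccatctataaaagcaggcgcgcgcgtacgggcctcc
Batf3: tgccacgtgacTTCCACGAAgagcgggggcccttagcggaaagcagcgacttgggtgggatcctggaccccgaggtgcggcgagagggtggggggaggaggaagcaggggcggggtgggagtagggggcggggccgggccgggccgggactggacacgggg

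The matches to TTCNNNGAA began 171 and 153 bases before the Irf8 start and 239 bases before the Batf3 start, and the CCAAT box of Irf8 lay on the minus strand 121 bases before the start. Of all 32817 RefSeq promoters of 300 bases, 8.29% held TTCNNNGAA and 37.4% held CCAAT. Zeb2 held both as well, but in different promoters of the gene. Id2 held CCAAT 3 times. A cut at the first annotated untranslated base leaves 89 bases of Id2 without any of these matches, and its promoter is not shown. Of the other motifs searched, the AP-1 letters TGANTCA (7.81% of promoters) were found at Zeb2 only, and the E-box CACCTG (20.2%) at a second Irf8 promoter only. No member promoter held AAAGGTCA (1.51% of promoters), GAGGAAGT (3.2%), the interferon regulatory factor element (3.43%) or the composite element of these factors with ETS proteins (2.72%). In all, 12 promoters of 8 members were searched. These are matches of letters, with nothing measured at them.

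By GENCODE vM21 on GRCm38, Irf8 (ENSMUSG00000041515) spans chr8:120736358-120756694 on the plus strand and lies inside a longer gene model, Gm20388, on the same strand. How reads shared by both models were counted is not known, which bears on each Irf8 level. Batf3 (ENSMUSG00000026630) spans chr1:191097847-191108945 on the plus strand with no overlapping gene. The other members are Flt3 (chromosome 5), Zeb2 (chromosome 2), Klf4 (chromosome 4), Irf4 (chromosome 13), Nr4a1 (chromosome 15), Id2 (chromosome 12) and Csf1r. Flt3 and Zeb2 each overlap annotated antisense transcripts.

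In total 12139 cells were kept, between 537 and 4722 per mouse, with 3817845 to 61983132 UMIs per mouse. The median was 5877 and 6280 UMIs per cell in the unimmunized mice and 9674 and 12727.5 in the immunized mice. Cells were placed in 14 gates by counting marker genes detected after thinning each cell, and no member was a marker. Beforehand, 621 barcode sequences shared by both captures were set aside, with their 1242 cells. In this way 5352 cells fell in 1 gate, 6136 in none and 651 in several. Levels are given as CPM, counts of a gene scaled to a common total per library, a library being the summed counts of 1 mouse in 1 gate, and 49 libraries of at least 10 cells were used. In such sums fewer cells with a transcript and less of it per cell cannot be told apart. The Cd209a dendritic cell gate had only 3 cells from unimmunized mouse 2 and so rests on 1 unimmunized library. Each gate had all of its own markers detected. Antibodies, which played no part in gating, gave the highest mean CD11c signal in the Cd209a dendritic cell (2.15 ± 0.25 centred log ratio, SD, n = 3 mice), cDC1 (2.00 ± 0.21, n = 4) and migratory dendritic cell gates (1.89 ± 0.13, n = 4). Ly-6c was highest on classical monocytes (3.50 ± 0.33, n = 4). It was also high on interferon-high monocyte-derived cells (2.84 ± 0.54, n = 3) and nonclassical monocytes (2.76 ± 0.24, n = 4). The 7 classical monocyte markers summed to 4595 to 7475 CPM in the nonclassical gate and 9223 to 11620 CPM in the classical gate. Whether the nonclassical gate holds classical monocytes was not tested. The CD169 ratio was highest on gamma-delta T (1.43 ± 0.21, n = 4) and NK cells (1.18 ± 0.27, n = 4), not on a macrophage gate. Each ratio is centred over the 6 antibodies of a cell, so it also depends on the signal of the others. Siglec1 transcripts had means of 4.12 and 4.27 CPM there, against 23.2 CPM in C1q macrophages and 15.5 CPM in the medullary sinus macrophage gate. Itgam, which encodes the CD11b used in the sort, reached 119 to 204 CPM in C1q macrophages and at most 25.3 CPM in any B cell, alpha-beta T or gamma-delta T cell library. NK cells held 98.0 to 197 CPM, within the range of the myeloid gates. The cDC1 gate held 7.73 to 59.2 CPM and migratory dendritic cells 0 to 50.8 CPM, overlapping the B and T cell gates. The Cd209a gate held 73.9 to 97.6 CPM.

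**Figure D1:**
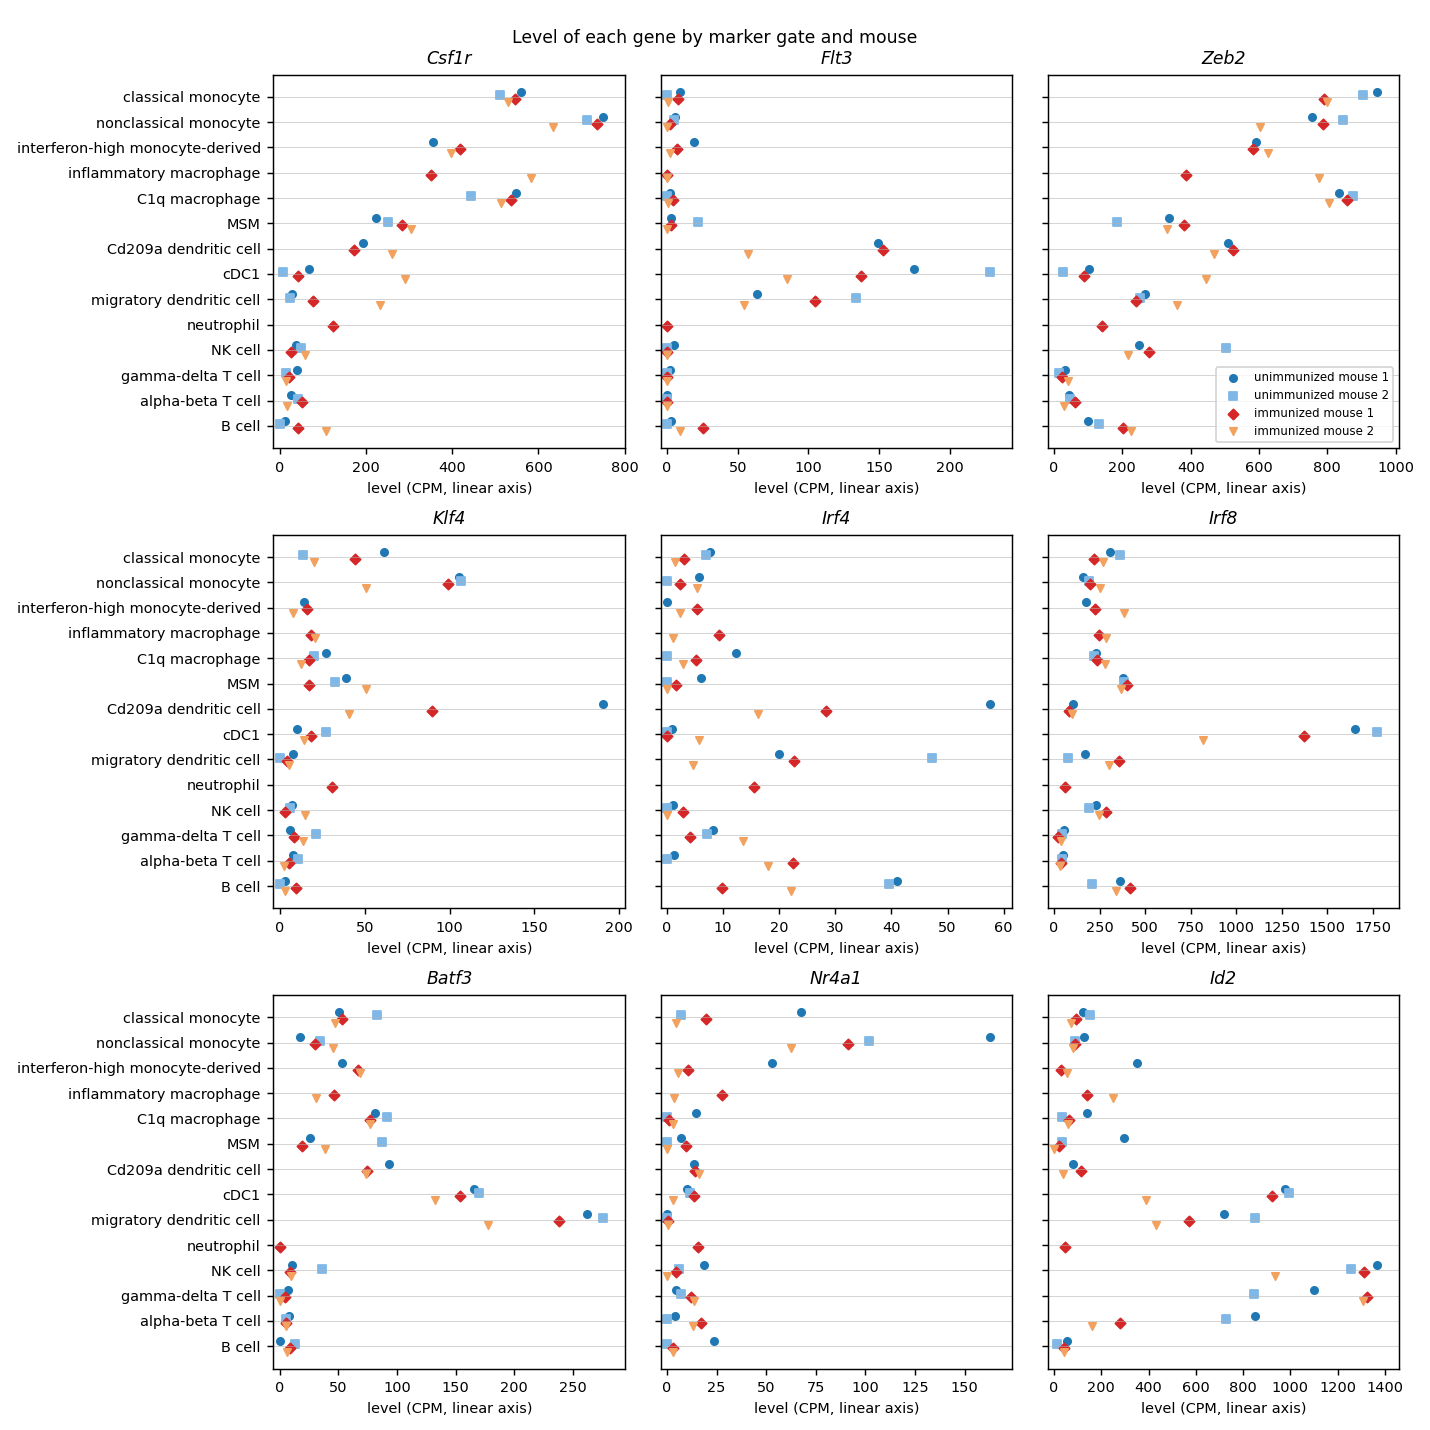
Level of each of the 9 genes in CPM on a linear axis, by marker gate, with 1 point per mouse and library of at least 10 cells. Csf1r and Zeb2 are highest in monocyte and macrophage gates, Flt3 in the 3 dendritic cell gates and Irf8 in cDC1.

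Csf1r was highest in nonclassical monocytes, at 749 and 712 CPM in unimmunized mice 1 and 2 and 735 and 634 CPM in immunized mice 1 and 2. The range lay above that of every other gate. Classical monocytes followed at 511 to 559 CPM and C1q macrophages at 443 to 548 CPM, and these 2 ranges overlapped each other and the 2 libraries of the inflammatory macrophage gate at 351 and 583 CPM. The medullary sinus macrophage (MSM) gate held 224 to 305 CPM and the Cd209a dendritic cell gate 172 to 260 CPM, also overlapping. The B cell, NK cell, alpha-beta T and gamma-delta T cell gates had means between 21.7 and 42.7 CPM, a level that stands for cells that should lack the receptor. Single B cell libraries ran from 0 to 107.5 CPM, so a level in that range cannot be told apart from theirs. After thinning to 1000 UMIs per cell, 48.4% of 417 nonclassical monocytes (exact binomial 95% interval 43.6 to 53.4%) and 2.30% of 305 alpha-beta T cells (0.928 to 4.67%) had a Csf1r UMI, at median depths of 8418 and 5795 UMIs. Intervals cover counting error only.

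Flt3, unlike Csf1r, was higher in dendritic cell gates than in monocyte and macrophage gates. In cDC1 it stood at 175 and 228 CPM in unimmunized mice 1 and 2 and at 137 and 84.6 CPM in immunized mice 1 and 2. The Cd209a gate held 149 CPM in unimmunized mouse 1, with 153 and 57.0 CPM in immunized mice 1 and 2. Migratory dendritic cells held 63.6, 134, 104 and 54.1 CPM in the same order of 4 mice. These 3 ranges overlapped one another, and all lay above every library of the other gates, where the highest value was 25.5 CPM in B cells of immunized mouse 1. In alpha-beta T cells Flt3 was at 0 UMIs in every library.

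Zeb2 shared the upper end of the Csf1r order without its separation. Classical monocytes held 791 to 945 CPM, C1q macrophages 805 to 877 CPM and nonclassical monocytes 603 to 847 CPM, and all overlapped. The Cd209a gate reached 468 to 523 CPM, above the other 2 dendritic cell gates, whose highest value was 445 CPM. Among lymphoid gates NK cells stood apart from T cells, at 216 to 503 CPM against at most 60.2 CPM in either T cell gate. Zeb2 was therefore not restricted to myeloid gates.

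Klf4, a zinc finger factor of monocytes, had its highest library in the Cd209a gate, with 190 CPM in unimmunized mouse 1 and 89.5 and 40.7 CPM in immunized mice 1 and 2. Nonclassical monocytes held 105 and 107 CPM in unimmunized mice 1 and 2 and 99.1 and 50.5 CPM in immunized mice 1 and 2. These ranges overlapped, and nonclassical monocytes were the higher in each of the 2 immunized mice. Every migratory dendritic cell library was at or below 7.48 CPM. Nr4a1 was highest in nonclassical monocytes, with 163 and 102 CPM in the unimmunized mice and 91.4 and 62.3 CPM in the immunized mice. Classical monocytes held 67.6 CPM in unimmunized mouse 1 but 4.78 to 19.8 CPM in the other 3 mice, so that 1 mouse made the ranges overlap.

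Irf8 separated cDC1 from every other gate. It stood at 1649 and 1771 CPM in unimmunized mice 1 and 2 and at 1372 and 815 CPM in immunized mice 1 and 2. The next gates were MSM at 369 to 401 CPM and B cells at 211 to 418 CPM, which overlapped. The Cd209a gate held 83.6 to 105 CPM, and migratory dendritic cells ranged more widely, from 78.7 to 356 CPM. After thinning, 63.6% of 151 cDC1 (55.4 to 71.3%) had an Irf8 UMI against 9.74% of 154 Cd209a cells (5.56 to 15.6%), at median depths of 16590 and 11720 UMIs.

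Batf3, the AP-1 partner of IRF8, was highest not in cDC1 but in migratory dendritic cells. Their libraries held 262 and 276 CPM in unimmunized mice 1 and 2 and 238 and 178 CPM in immunized mice 1 and 2. The cDC1 gate followed at 133 to 170 CPM, and the 2 ranges did not overlap. C1q macrophages and Cd209a cells held 77.1 to 91.8 and 73.2 to 93.1 CPM. B and T cell libraries were at or below 13.2 CPM.

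Id2, the E-protein inhibitor, was shared with lymphoid cells. NK cells held 934 to 1366 CPM and gamma-delta T cells 846 to 1322 CPM, and these overlapped each other and the cDC1 range. In cDC1 it stood at 976 and 994 CPM in unimmunized mice 1 and 2 and at 924 and 389 CPM in immunized mice 1 and 2. Migratory dendritic cells held 429 to 850 CPM and the Cd209a gate 36.6 to 113 CPM. Irf4, which acts in type 2 dendritic cells and in lymphocytes, was low everywhere, with a highest library of 57.5 CPM in the Cd209a gate of unimmunized mouse 1. Its range there, 16.3 to 57.5 CPM, overlapped those of B cells and migratory dendritic cells.

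Differences between gates were tested with edgeR's quasi-likelihood test on all 10753 genes that passed the filter on low counts, with Benjamini-Hochberg adjustment over all of them at 0.05. All 9 members passed the filter. Each value below is a log2 fold change ± a standard error, its absolute size divided by the square root of the test's F statistic.

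**Figure D2:**
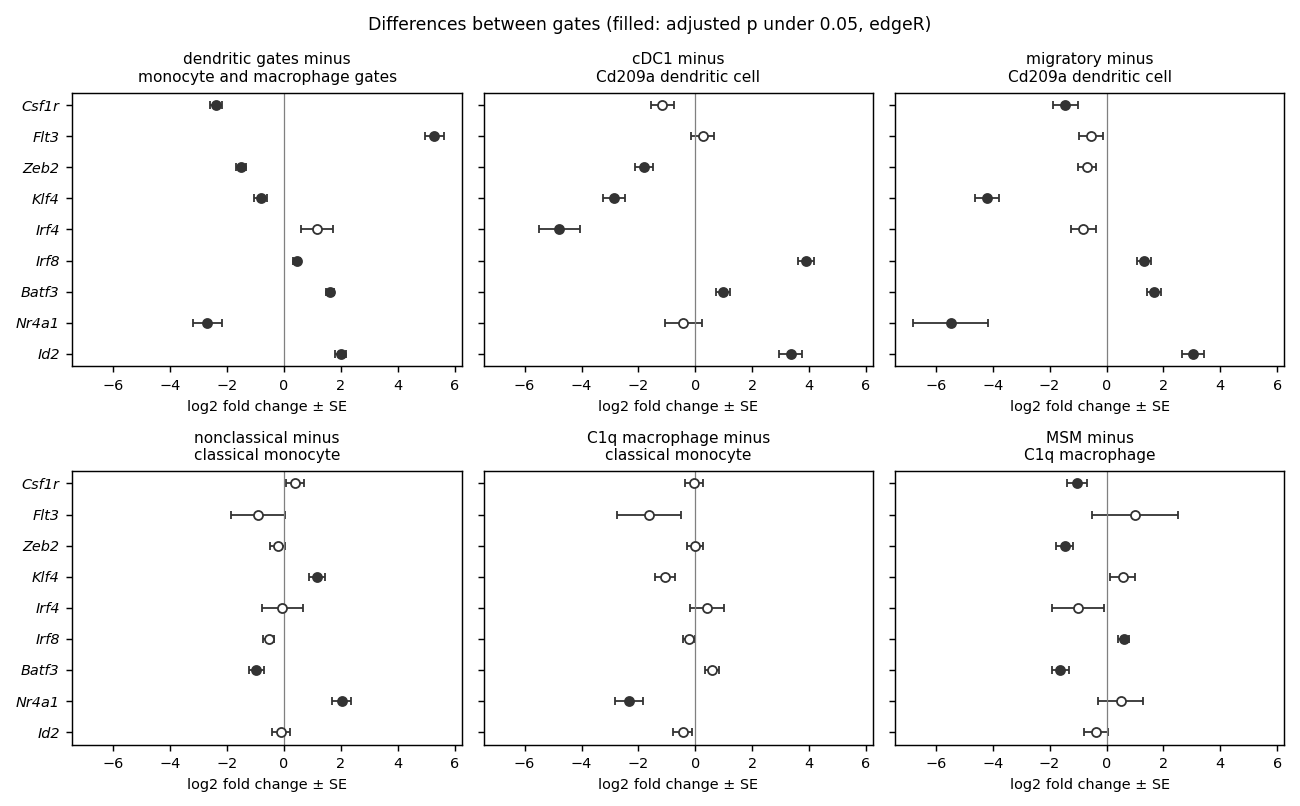
Log2 fold change ± standard error of the 9 genes in 6 comparisons between gates, with filled points for an adjusted p under 0.05 (edgeR). Dendritic cell gates stand lower for Csf1r (-2.39) and higher for Flt3 (5.29), and cDC1 stand higher than Cd209a cells for Irf8 (3.89).

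The 3 dendritic cell gates, as an equal-weight mean, were set against that of the classical monocyte, nonclassical monocyte and C1q macrophage gates. On these means they were lower in Csf1r, Zeb2, Klf4 and Nr4a1 and higher in Flt3, Irf8, Batf3 and Id2. Single gates departed from this. Irf8 lay above all 3 monocyte and macrophage gates in cDC1 alone. In migratory dendritic cells its mean (227 CPM) was below classical monocytes (288 CPM) and C1q macrophages (240.5 CPM). It was above nonclassical monocytes (200 CPM), and the range overlapped all of these. In Cd209a cells Irf8 (83.6 to 105 CPM) lay below all 3 monocyte and macrophage gates, and Klf4 had its highest gate mean (106.8 CPM). Their Batf3 and Id2 ranges overlapped those of C1q macrophages. Mean Nr4a1 was lower in C1q macrophages (4.72 CPM) than in Cd209a cells (14.7 CPM). In all 8 of 9 members passed the test, where 26.3% of all genes did, and the members' median was 0.45 beside -0.02 over all genes. Flt3 was higher by 5.29 ± 0.34 (adjusted p = 5.1e-14) and Id2 by 2.00 ± 0.19 (adjusted p = 1.1e-10). Csf1r was lower, at -2.39 ± 0.22 (adjusted p = 5.2e-11), as was Zeb2 at -1.52 ± 0.17 (adjusted p = 4.5e-09). Batf3 rose by 1.61 ± 0.14 (adjusted p = 5.7e-12). Nr4a1 differed by -2.70 ± 0.52 (adjusted p = 8.0e-05), Klf4 by -0.82 ± 0.23 (adjusted p = 0.0069) and Irf8 by 0.45 ± 0.12 (adjusted p = 0.0051). Irf4, at 1.16 ± 0.56, did not pass (adjusted p = 0.13). Without unimmunized mouse 1, Klf4 (adjusted p = 0.063) and Nr4a1 (-1.44, adjusted p = 0.054) no longer passed, and without immunized mouse 1 Irf8 did not (adjusted p = 0.069). With stricter gates Klf4 turned to 0.16 (adjusted p = 1.0), and its call was also lost with DESeq2 and with either capture alone.

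Among the other factors, most of the macrophage list was lower in the dendritic cell gates, while the other lists held calls in both directions. Of 14 macrophage factors, 11 were lower in the dendritic cell gates and none higher (list median -1.43), among them Maf (-2.42), Nr1h3 (-1.87) and Spic (-2.43), the factor of iron-recycling macrophages. Of 13 monocyte factors, 6 were lower and 1 higher (median -0.96), led by Cebpb at -3.27. Of 16 dendritic cell factors, 6 were higher and 5 lower (median 0.24). Zbtb46, a zinc finger factor of conventional dendritic cells, rose by 3.86 and Zfp366 by 2.56. Of 9 growth factor genes 7 were tested, of which Csf3r (-2.67) and Csf2rb (-0.43) were lower and Kit (1.81) higher.

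Within the dendritic cell gates, cDC1 held more Irf8, Id2 and Batf3 than Cd209a cells and less Zeb2, Klf4 and Irf4. Here 6 of 9 members passed beside 7.33% of all genes, and the members' median was -0.42 beside 0.01. Irf8 was higher by 3.89 ± 0.27 (adjusted p = 1.6e-13) and Id2 by 3.35 ± 0.40 (adjusted p = 1.1e-07). Klf4 was lower at -2.86 ± 0.38 (adjusted p = 9.6e-07) and Zeb2 at -1.80 ± 0.32 (adjusted p = 1.2e-04), while Batf3 was higher by 0.97 ± 0.24 (adjusted p = 0.0073). Irf4 had 3 UMIs among 2442417 in cDC1 and 70 among 1825815 in Cd209a cells, a ratio of 0.032 with a 95% counting interval of 0.0065 to 0.098 (adjusted p = 1.1e-05 for the fitted difference). Flt3 did not pass (0.26 ± 0.40, adjusted p = 0.87). Csf1r (-1.16 ± 0.40, adjusted p = 0.074) passed with the mouse as a block, which brought the count to 7.

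The 18 cDC1 of immunized mouse 2 stood apart from the other cDC1 libraries. They held 290 CPM of Csf1r against 7.73 to 68.2 CPM in the other 3 mice, and 445 CPM of Zeb2 against 27.1 to 102 CPM. In the same library 6 of 7 C1q macrophage markers were detected, all but Ms4a7, with a sum of 4210 CPM against 1036 to 1373 CPM in the other 3 mice. Its sum of 7 classical monocyte markers was 2743 CPM against 1012 to 1274 CPM, and its sum of cDC1 markers was 753 CPM against 1806 to 1843 CPM. The part of these markers in the member values was not tested. Without unimmunized mouse 1, which held the only unimmunized Cd209a library and so leaves the immunized mice alone, 2 members passed, Irf8 and Id2. The adjusted p was then 0.39 for Zeb2, 0.082 for Klf4, 0.16 for Irf4 and 0.058 for Batf3. Batf3 also missed without immunized mouse 1, with DESeq2 and with capture 2 alone.

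**Figure D3:**
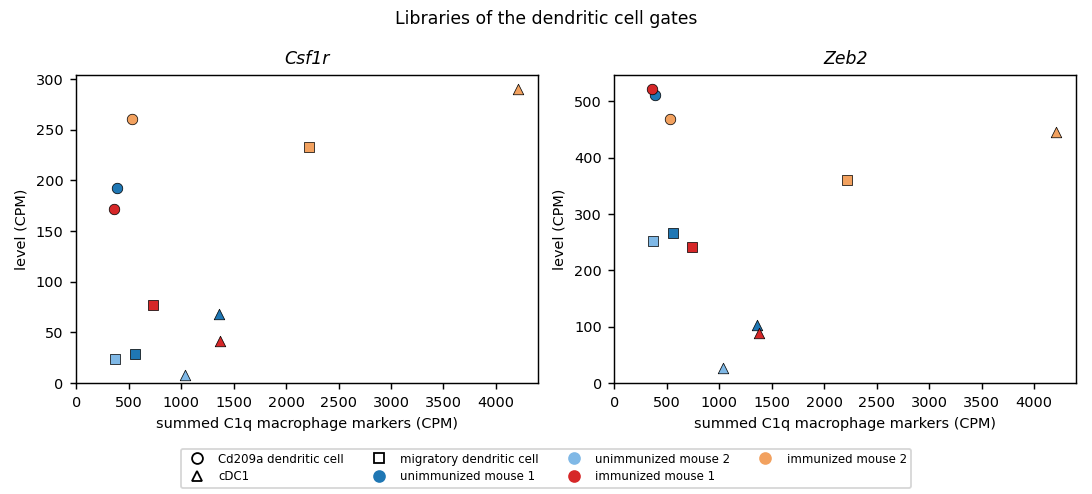
Csf1r and Zeb2 levels (CPM) against the summed level of 7 C1q macrophage markers (CPM) in each library of the 3 dendritic cell gates, coloured by mouse. The cDC1 library of immunized mouse 2 lies at the right, with 290 CPM of Csf1r and 445 CPM of Zeb2.

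The neighbouring factors split cDC1 and Cd209a cells as well. Of 16 dendritic cell factors 1 was higher in cDC1 (Zfp366, 2.04) and 5 lower, among them Tcf4 (-2.46), the E protein that ID2 antagonises, Spib (-3.20) and Bcl11a (-1.47). The list median was -0.61. No growth factor gene of 7 tested passed. Of the macrophage factors 1 was higher (Nr1h3, 1.97) and 2 lower (Runx3, -1.02, and Bhlhe40, -1.38), and of the monocyte factors Cebpa was lower (-0.97).

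Migratory dendritic cells, which carry the chemokine receptor Ccr7, held more Irf8, Batf3 and Id2 than Cd209a cells and less Csf1r, Klf4 and Nr4a1. Again 6 of 9 members passed, beside 22.0% of all genes, with a members' median of -0.69 beside -0.00215. Id2 was higher by 3.04 ± 0.39 (adjusted p = 9.1e-08), Batf3 by 1.66 ± 0.24 (adjusted p = 1.0e-06) and Irf8 by 1.32 ± 0.25 (adjusted p = 8.2e-05). Klf4 was lower at -4.20 ± 0.42 (adjusted p = 2.7e-10). Nr4a1 had 2 UMIs among 4014653 in migratory cells and 26 among 1825815 in Cd209a cells, a ratio of 0.035 with a counting interval of 0.0040 to 0.14 (adjusted p = 0.0018). Csf1r was lower at -1.45 ± 0.43 (adjusted p = 0.011), a call that was lost without unimmunized mouse 1 (-0.35, adjusted p = 0.76) and without unimmunized mouse 2 (-1.40, adjusted p = 0.055). DESeq2 did not call it either (adjusted p = 0.053), nor did the fits with HTODemux (0.16) or capture 1 alone (0.19). Zeb2 (-0.69 ± 0.31, adjusted p = 0.11), Flt3 (-0.55 ± 0.41) and Irf4 (-0.82 ± 0.44) did not pass. Among the other factors Relb, an NF-kappaB subunit of mature dendritic cells, rose by 3.18 and Irf1 by 2.48, and Bcl11a was lower at -4.11. In total 5 of 16 dendritic cell factors were higher and 6 lower, and 4 of 14 macrophage factors higher and 2 lower, with Spic at 2.98 and Runx3 at -2.04. Of the monocyte factors 3 were higher and 3 lower, and of the growth factor genes 2 were higher (Csf2rb2, 1.59, and Csf2rb, 1.15) and Kit lower (-2.17).

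Nonclassical monocytes held more Nr4a1 and Klf4 and less Batf3 than classical monocytes. Thus 3 of 9 members passed where 2.57% of all genes did. Nr4a1 was higher by 2.03 ± 0.34 (adjusted p = 1.9e-04), Klf4 by 1.17 ± 0.28 (adjusted p = 0.013), and Batf3 was lower at -0.97 ± 0.27 (adjusted p = 0.037). Irf8 was at -0.54 ± 0.20 (adjusted p = 0.22), and Csf1r, whose ranges did not overlap on the CPM scale, at 0.38 ± 0.32 (adjusted p = 0.77). Without unimmunized mouse 1 no member passed, with adjusted p = 0.060 for Nr4a1 (3.21), 0.15 for Klf4 (2.05) and 0.28 for Batf3 (-0.91). Klf4 also missed without unimmunized mouse 2 (adjusted p = 0.23) and Batf3 without immunized mouse 1 (adjusted p = 0.25). DESeq2 called 0 of 9 members and 100 of all genes, with 4 members and 618 of all genes at an unadjusted p under 0.05. Of the monocyte factors Pou2f2 (1.59) and Klf2 (0.92) were higher, and 3 macrophage factors were higher, among them Bhlhe40 (1.32) and Nr1h3 (1.18). Bcl6 (0.96) was the 1 dendritic cell factor that passed, and no growth factor gene of 7 did.

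Between C1q macrophages and classical monocytes 3 members had an unadjusted p under 0.05 in edgeR, Nr4a1, Klf4 and Batf3 (0.58 ± 0.23, adjusted p = 0.28). Of all 10753 genes 1210 had such a p in edgeR, and 579 genes did in DESeq2. Nr4a1 alone passed, lower in macrophages at -2.33 ± 0.49 (adjusted p = 0.0043), which is 1 of 9 members beside 1.81% of all genes. Its libraries held 14.8 and 0 CPM in unimmunized and 0.863 and 3.25 CPM in immunized macrophages. Csf1r (-0.05 ± 0.32) and Zeb2 (-0.01 ± 0.27) were close to 0 with adjusted p = 1.0. Each gate also held markers of the other. Classical monocyte markers summed to 3165 to 3275 CPM in C1q macrophages, and C1q macrophage markers to 1901 to 2452 CPM in classical monocytes. The part of these markers in the 2 values was not tested. With the mouse as a replicate block 2 members passed, Klf4 (-1.07 ± 0.35 and adjusted p = 0.12 without the block) being added. The Nr4a1 call was lost without unimmunized mouse 1 (-4.10, adjusted p = 0.81) and without immunized mouse 1 (-1.45, adjusted p = 0.083), 2 members passed without immunized mouse 2, and DESeq2 called 0 of 9, with 1 at an unadjusted p under 0.05. Other factors differed as well, with 3 macrophage factors higher, among them Maf (1.80) and Nr1h3 (1.72), and the monocyte factors Klf2 (-1.52) and Pou2f2 (-1.18) lower. Rel (-0.86) was lower among the dendritic cell factors.

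The MSM gate held less Zeb2, Batf3 and Csf1r than C1q macrophages and more Irf8. In all 4 of 9 members passed, beside 19.9% of all genes, and median depth was 2274 UMIs per MSM cell against 12940 per C1q macrophage. Zeb2 was lower at -1.48 ± 0.29 (adjusted p = 2.6e-04), with 185 to 381 CPM in MSM. Batf3 was lower at -1.63 ± 0.30 (adjusted p = 1.3e-04) and Csf1r at -1.05 ± 0.35 (adjusted p = 0.028), and Irf8 was higher by 0.60 ± 0.21 (adjusted p = 0.037). Without unimmunized mouse 1 only Zeb2 passed, with adjusted p = 0.34 for Csf1r, 0.051 for Batf3 and 0.13 for Irf8. Without unimmunized mouse 2 Csf1r (adjusted p = 0.11) and Irf8 (adjusted p = 0.10) missed, and without immunized mouse 1 Batf3 (adjusted p = 0.059) and Irf8 (adjusted p = 0.29) did. Csf1r was also lost with DESeq2 (adjusted p = 0.20), HTODemux (0.11) and capture 1 alone (0.14), and Irf8 with stricter gates (0.60) and capture 2 alone (0.19). The growth factor receptors Csf2ra (-1.91), Csf2rb (-1.30) and Csf3r (-1.08) were lower too, 3 of 7 tested. Nr1h3, which encodes the liver X receptor alpha, was higher by 1.34. Of 13 monocyte factors 2 were higher (Cebpd, 1.21, and Klf2, 1.01) and 2 lower, and of 16 dendritic cell factors 1 was higher (Zeb1, 1.91) and 5 lower.

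C1q macrophages with at least 2 markers of tingible body macrophages (TBM), the cells that clear dying B cells, were set against those with none, in immunized mice only. The 8 markers are not particular to TBM, with sums of 325 to 700 CPM in the MSM gate and 216 to 469 CPM in C1q macrophages. The split is therefore by marker and not by proven cell type. No member was called by edgeR, where 0.334% of 10773 genes were, with 1 member at an unadjusted p under 0.05. DESeq2 called 0, with 2 at an unadjusted p under 0.05. Of all genes, 620 in edgeR and 217 in DESeq2 had such a p. Csf1r stood at 641 and 587 CPM with the markers and at 513 and 495 CPM without them in immunized mice 1 and 2 (0.15 ± 0.43, adjusted p = 1.0). Zeb2 stood at 1098 and 1013 CPM with and 855 and 769 CPM without (0.25 ± 0.37, adjusted p = 1.0). Both were higher with the markers in each of the 2 mice, and neither gene's values with and without the markers overlapped. With 2 values against 2 such an order often arises by chance, and the share of all genes showing it was not counted. The fitted difference of each of the 2 genes was smaller than its standard error, which comes from a fit that did not pair the cells by mouse. With the mouse as a replicate block no member was called either, with 2 members and 905 of all genes at an unadjusted p under 0.05. Nr4a1 was the member with the low unadjusted p in edgeR without the block (2.62 ± 0.96, adjusted p = 0.56). The difference came from 13 UMIs in immunized mouse 2 (10.1 against 1.15 CPM), and immunized mouse 1 went the other way (0 against 0.473 CPM). Of 14 macrophage factors Maf rose (2.09 ± 0.35, adjusted p = 5.3e-04), and no gene of the other 3 lists passed.

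Immunization was tested within the 10 gates with libraries from 2 mice per condition, which made 90 tests of members. Of these 3 passed, Csf1r and Irf8 in migratory dendritic cells and Id2 in MSM. At an unadjusted p under 0.05 there were 14 in edgeR, beside 363 (NK cells) to 1310 (migratory dendritic cells) of 10753 genes per gate. DESeq2 called 3 members, beside 164 calls among all genes over the gates. Unadjusted it gave 9 members, beside 105 (NK cells) to 633 (migratory dendritic cells) genes per gate. The calls of DESeq2 were Irf8 in migratory dendritic cells, Id2 in MSM and Zeb2 in cDC1, so that it did not call Csf1r. The share of all genes called was 1.56% in migratory dendritic cells, 0.372% in classical monocytes, 0.158% in MSM, 0.0744% in alpha-beta T cells, 0.0093% in B cells, 0.0465% each in C1q macrophages, cDC1 and nonclassical monocytes, and 0.0% in gamma-delta T and NK cells.

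**Figure D4:**
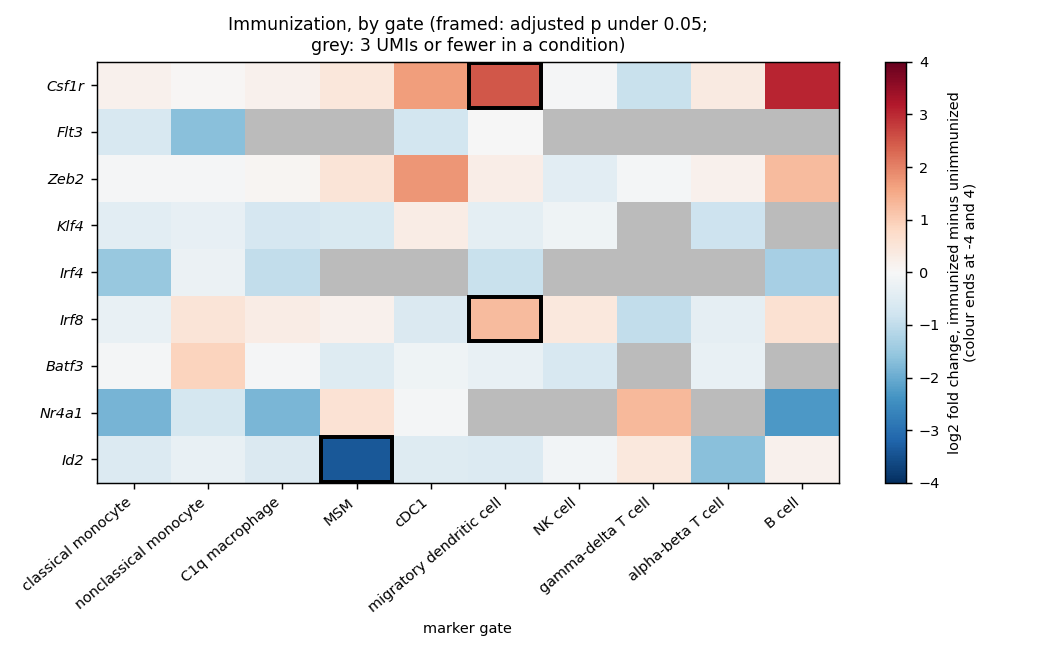
Log2 fold change of immunized minus unimmunized mice for the 9 genes in 10 gates, with frames for an adjusted p under 0.05 (edgeR) and grey for 18 of 90 cells with 3 UMIs or fewer in a condition. The 3 framed cells are Csf1r and Irf8 in migratory dendritic cells and Id2 in MSM.

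In migratory dendritic cells Csf1r was at 28.7 and 23.6 CPM in the unimmunized mice and 76.8 and 233 CPM in immunized mice 1 and 2, a difference of 2.49 ± 0.63 (adjusted p = 0.031). Irf8 was at 170 and 78.7 CPM in the unimmunized and 356 and 304 CPM in the immunized mice (1.26 ± 0.30, adjusted p = 0.018). In each gene both immunized mice lay above both unimmunized mice, an order that 2 mice against 2 often give by chance. The share of all genes with such an order was not counted. Unimmunized mouse 2 had only 13 cells and 127026 UMIs in this gate. In these libraries 7 C1q macrophage markers summed to 735 and 2215 CPM in immunized mice 1 and 2 and to 561 and 370 CPM in the unimmunized mice. The 7 classical monocyte markers summed to 585 and 1597 CPM against 228 and 189 CPM. Mertk was at 0 in all libraries but that of immunized mouse 2, and C1qa and Ms4a7 were also at 0 in unimmunized mouse 2. The part of these markers in the 2 differences was not tested. The Csf1r call was lost without immunized mouse 2 (1.45, adjusted p = 0.065), without unimmunized mouse 1 (2.85, adjusted p = 0.48) and without unimmunized mouse 2 (2.34, adjusted p = 0.30). It was not called by DESeq2 (adjusted p = 0.058). Nor did it pass with HTODemux, stricter gates, either capture alone or libraries of at least 30 cells. In all, 10 of 15 alternatives lost the Csf1r call. With cells grouped by Leiden clusters the Csf1r difference was 0.0038 (adjusted p = 1.0). The Irf8 call was lost without unimmunized mouse 1 (2.21) and without unimmunized mouse 2 (0.88). It was also lost with HTODemux, stricter gates, either capture alone or libraries of at least 30 cells, which made 7 of 15 alternatives.

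In the MSM gate Id2 was at 296 and 32.7 CPM in unimmunized mice 1 and 2 and at 20.3 and 0 CPM in immunized mice 1 and 2, a difference of -3.40 ± 0.67 (adjusted p = 0.017). Unimmunized mouse 2 had only 37 cells and 91694 UMIs in this gate, and immunized mouse 2 had 21 cells and 78624 UMIs. Unimmunized mouse 1 was the high value. In that library all 3 T cell markers were detected, with a sum of 184 CPM against 0 to 21.8 CPM in the other 3 mice. The 7 NK cell markers summed to 112 CPM against 0 to 10.9 CPM, and the gamma-delta T cell markers to 102 CPM against 0 to 65.4 CPM. The part of these markers was not tested. The Id2 call was lost without unimmunized mouse 1 (-0.79) and without immunized mouse 1. It was also lost with HTODemux, stricter gates, Leiden clusters, either capture alone or libraries of at least 30 cells, which made 8 of 15 alternatives.

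Some other members reached only an unadjusted p under 0.05 in edgeR. In B cells Csf1r gave 3.04 ± 1.0 (adjusted p = 0.44), with means of 5.87 CPM unimmunized and 74.8 CPM immunized. Zeb2 (1.255 ± 0.496, adjusted p = 0.51) and Irf8 (0.61 ± 0.30, adjusted p = 0.65) were higher there too. Over the B cell libraries C1q macrophage markers summed to 263 to 888 CPM and classical monocyte markers to 1112 to 2545 CPM. The part of these markers in the 3 values was not tested. Batf3 gave 0.90 ± 0.42 in nonclassical monocytes (adjusted p = 0.66) and Nr4a1 2.45 ± 1.18 in alpha-beta T cells (adjusted p = 0.75). Irf8 gave -0.59 ± 0.27 in cDC1 (adjusted p = 0.73). In cDC1 Zeb2 gave 1.77 ± 0.44 (adjusted p = 0.094 in edgeR, while DESeq2 called it) and Csf1r 1.67 ± 0.56 (adjusted p = 0.39), with immunized mouse 2 as the high library described above. In classical monocytes Nr4a1 gave -1.86 ± 0.54 (adjusted p = 0.15), with unimmunized mouse 1 high. In alpha-beta T cells Irf4 stood at 1.27 and 0 CPM in the unimmunized and 22.4 and 18.1 CPM in the immunized mice (4.31 ± 1.17, adjusted p = 0.17). In the same gate Id2 stood at 850 and 727 CPM in the unimmunized mice and 280 and 160 CPM in immunized mice 1 and 2 without passing (-1.67 ± 0.43, adjusted p = 0.13). Csf1r passed at neither p in C1q macrophages (0.18 ± 0.45) and classical monocytes (0.16 ± 0.45), with both groups of mice overlapping. Whether the effect of immunization differed between gates was tested directly, and 0 of 9 members passed in edgeR, where 0.232% of all genes did. At an unadjusted p under 0.05 there were 6 members (Csf1r, Zeb2, Irf4, Irf8, Nr4a1 and Id2), beside 613 of 10753 genes. This comparison was not made with DESeq2. The test between gates called more members without immunized mouse 1 or without immunized mouse 2. The share of all genes called in those fits is not given.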

How the data were processed

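Per the labels and the study's methods, the authors made the gene counts with Cell Ranger 4.0.0 on mm10 from 3′ 10X libraries of 2 captures, used CITE-seq-Count for the tags of hashtags and antibodies, and deposited raw counts, not normalized. Of 18662 barcodes, cells were assigned to a mouse where 1 hashtag held at least 80% of at least 10 hashtag counts, and cells above 25% mitochondrial counts were dropped. No doublet caller was run beyond this, and removal of the 8% of barcodes most like doublets was an alternative. Cells were thinned to 4000 UMIs (1754 cells were shallower) and gated by 2 to 5 detected markers, minimums chosen after marker counts were seen. Counts were summed per mouse and gate and fitted with edgeR 4.0.16 (quasi-likelihood, TMM, filter on low counts, all gates in 1 fit, conditions weighted equally, 23 residual degrees of freedom) in R 4.3.3, with Benjamini-Hochberg adjustment. DESeq2 1.42.0, Seurat 5.3.0 (HTODemux, which kept 9665 cells) and scanpy 1.11.5 (Leiden) served the alternatives. Antibody counts were centred log ratios.

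The 9 genes and all gene lists were chosen with earlier results of these data known. The text names the 9 genes and, from 4 lists, up to 4 genes per comparison with the largest change among called genes whose average log2 CPM was 4 or more, plus the 3 genes most correlated with each member. The values of a further gene that the rule picks are not reported here. Libraries of 1 mouse in several gates come from the same animal and are paired by it. The deviations of libraries of the same mouse had a median correlation of 0.018 over 45 pairs of gates (-0.010 to 0.079) in the unimmunized and 0.053 over 78 pairs (-0.059 to 0.55) in the immunized mice. Fits were also run on simulated counts. There all libraries shared a mean profile apart from genes changed on purpose, with no effect of the mouse. Those runs therefore cannot show how the fits behave with wide differences between gates or with mouse effects.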

Additional observations from a re-analysis of the deposited data

Results flagged for a closer look

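The 6136 cells in no gate entered no comparison, and each of the 9 genes was detected in them. Their mean levels over 4 mice were 346.5 CPM for Csf1r, 14.89 CPM for Flt3, 545.2 CPM for Zeb2, 25.31 CPM for Klf4, 5.013 CPM for Irf4, 212.4 CPM for Irf8, 57.34 CPM for Batf3, 5.784 CPM for Nr4a1 and 298.1 CPM for Id2. Csf1r ranged from 222.9 to 444.6 CPM and Id2 from 73.49 to 658.8 CPM between mice.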

How the results depend on the processing

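Of 493 repeated values of called genes, 417 kept their direction and side of the threshold, 75 kept the direction only, and 1 reversed, Klf4 in dendritic against monocyte and macrophage gates with stricter gates (0.16, adjusted p = 1.0). The causes were not tested. For nonclassical against classical monocytes the count of 3 became 0 with DESeq2, 0 in capture 2 alone and 1 with libraries of at least 30 cells. For C1q macrophages against classical monocytes the count of 1 became 2 without the filter on low counts, with HTODemux, stricter gates, Leiden clusters or capture 2 alone, and 0 with DESeq2, capture 1 alone or libraries of at least 30 cells. With the mouse as a replicate block it was 2, and the block added Csf1r in cDC1 against Cd209a cells (7 in place of 6) and changed no other call between gates. The split by TBM markers gave 1 without the filter. The immunization count of 3 became 9 without the filter, 6 with likely doublets removed, 1 with stricter gates, and 0 with HTODemux, capture 1 alone, capture 2 alone or libraries of at least 30 cells. The 1 call with stricter gates was none of the 3, all of which were lost there. The test between gates gave 6 without the filter and 1 each with Leiden clusters and likely doublets removed. Leaving out 1 mouse gave 2 to 7 calls for cDC1 against Cd209a cells, 0 to 3 for nonclassical against classical monocytes, 0 to 2 for C1q macrophages against classical monocytes, 1 to 4 for MSM against C1q macrophages, 0 to 11 for immunization and 0 to 4 for the test between gates, while dendritic against monocyte and macrophage gates kept 6 to 8 and migratory against Cd209a cells 5 to 7. Immunization divides the mice, so no block fit was made for it. The shallowest library, with 64702 UMIs, limits genes of low level.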

Other observations

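Over the 49 libraries and 6297 genes compared, the genes whose log2 CPM followed a member most closely were listed without a test, since the points share mice and depth. For Csf1r these were Cd302 (Pearson r = 0.94), Lyz2 (0.93) and Lst1 (0.92), and for Zeb2 Lst1 (0.88), Rnf130 (0.88) and Apobec1 (0.87). Batf3 was followed by Shtn1 (0.90), Itm2c (0.85) and Ccdc88a (0.83), and Flt3 by Tnni2 (0.84), Adam23 (0.81) and Cbfa2t3 (0.75). Id2 was followed by Esyt2 (0.82), Ahnak (0.82) and Osbpl3 (0.80), and Klf4 by Gpx1 (0.76), Rgs2 (0.75) and Cd300ld (0.74). Irf8 was followed by BC028528 (0.74), Psmb9 (0.72) and Fuca1 (0.71). The closest genes were less close for Nr4a1 (Diaph2, Actr2 and Tmem38b, each 0.62) and Irf4 (Rab21, 0.58, Adam19, 0.55, and Zfp36l1, 0.54).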
